A study of Mus musculus with 2 samples.

Results

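The genes described here are the 6 members of the Fos and Jun families Fos, Fosb, Fosl2, Jun, Junb and Jund, out of 21938 protein-coding genes in the GENCODE M21 annotation of mm10. Members were taken by name, and each was examined over a window of its gene body plus 50 kb on either side. The assay was DNase-seq, and the tissue was left cerebral cortex from female mice at postnatal day 4. The mice were B6CASTF1/J, F1 hybrids of an inbred laboratory strain and a wild-derived inbred strain. There was 1 group with 2 libraries, replicate 1 and replicate 2, which carried different animal numbers under a shared strain-level donor. The design holds no second condition, so nothing was tested and every value below is a description. In DNase-seq, nuclei are treated with the nuclease DNase I and the cut ends are sequenced; a stretch of open chromatin with many cuts is called a DNase I hypersensitive site (DHS).

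Fos and Jun proteins are leucine zipper transcription factors that bind DNA in pairs as the AP-1 complex, Jun proteins with each other or with a Fos protein, while Fos proteins need a Jun partner. Several of the genes are immediate-early genes, which neurons transcribe within minutes of synaptic activity without new protein synthesis; Jund is the member known for steadier expression. Textbook control of Fos runs through a serum response element, a CArG box bound by SRF, and a cAMP response element (CRE) bound by CREB, and that of Jun through variant AP-1/CRE sites and a MEF2 site close to its start. In cortical neurons, enhancers on both sides of Fos are also known to take part in its induction.

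All 6 genes carried a DHS at the promoter in both animals, and every window also held DHSs more than 1 kb from any protein-coding start. Jund, then Jun, had the highest promoter values in both libraries, followed by Fosb where DHSs up to 1 kb from a start are counted. CArG boxes, rare in the DHSs of this tissue, were found at the Fos and Fosb promoters and in DHSs beside Fos and Junb, while the AP-1 consensus itself was found in 2 DHSs of all 6 windows. The next lines give the reference sequence of the DHS stretches that hold these letters, chosen because the results on consensus matches rest on them. The sequences were read from the RefSeq copy of the mm10 genome (GRCm38.p6), which represents the C57BL/6J strain, so the other allele of these hybrids may differ. Each is written 5′ to 3′ on the strand of the member gene. Stretches were kept clear of annotated untranslated regions, and sites inside them are shown with 30 bases only.

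Capitals in the first group mark the CArG box (CC, then 6 letters that are each A or T, then GG) and the CRE core TGACGT. The CRE core was added to the consensus list after the sequences had been seen.
Fos promoter, chr12:85473556-85473855, plus strand: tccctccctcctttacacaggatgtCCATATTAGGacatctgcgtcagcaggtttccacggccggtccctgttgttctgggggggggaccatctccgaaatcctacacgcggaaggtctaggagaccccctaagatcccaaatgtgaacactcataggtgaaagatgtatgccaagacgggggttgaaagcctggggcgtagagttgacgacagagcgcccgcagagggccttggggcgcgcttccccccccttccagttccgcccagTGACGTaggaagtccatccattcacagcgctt
Fos downstream DHS, chr12:85486019-85486218, plus strand: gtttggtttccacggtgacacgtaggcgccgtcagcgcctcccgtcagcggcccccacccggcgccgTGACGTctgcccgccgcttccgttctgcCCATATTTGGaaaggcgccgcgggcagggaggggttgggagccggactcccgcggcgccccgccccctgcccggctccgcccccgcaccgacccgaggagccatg
Fosb promoter, chr7:19310213-19310412, minus strand: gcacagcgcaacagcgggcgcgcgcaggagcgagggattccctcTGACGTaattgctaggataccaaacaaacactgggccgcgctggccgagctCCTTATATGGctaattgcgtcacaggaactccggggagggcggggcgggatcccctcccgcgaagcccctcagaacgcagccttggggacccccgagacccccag
Junb downstream DHS, chr8:84976543-84976742, minus strand: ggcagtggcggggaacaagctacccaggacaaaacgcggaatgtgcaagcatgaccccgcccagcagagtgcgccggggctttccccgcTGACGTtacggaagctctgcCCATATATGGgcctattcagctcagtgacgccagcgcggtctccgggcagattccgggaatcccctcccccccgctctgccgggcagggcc
Hook2 promoter in the Junb window, chr8:84990374-84990403, minus strand: tcctcaagatCCTTTTAAGGcggatctacc

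In the second group capitals mark the AP-1 consensus TGACTCA (Fosl2 and Fosb), the variant TGACATCA (Jun), the full CRE TGACGTCA (Jund) and the MEF2 consensus, a run of A and T between CTA and TAG (Jun and Fosb).
Fosl2 promoter, chr5:32135842-32135871, plus strand: gtgccattgtagTGACTCAtctcgggcaga
Fosb upstream DHS, chr7:19332982-19333181, minus strand: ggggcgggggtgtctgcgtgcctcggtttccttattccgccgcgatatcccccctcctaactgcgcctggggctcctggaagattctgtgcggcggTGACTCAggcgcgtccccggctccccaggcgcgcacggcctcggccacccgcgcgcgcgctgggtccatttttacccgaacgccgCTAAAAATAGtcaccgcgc
Jun promoter, chr4:95052223-95052522, minus strand: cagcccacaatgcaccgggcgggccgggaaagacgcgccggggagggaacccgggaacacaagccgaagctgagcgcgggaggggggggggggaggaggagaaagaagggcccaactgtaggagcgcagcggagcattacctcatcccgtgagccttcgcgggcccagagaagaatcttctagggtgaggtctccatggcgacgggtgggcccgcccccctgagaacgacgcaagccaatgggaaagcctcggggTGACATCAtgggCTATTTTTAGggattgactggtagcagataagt
Jund promoter, chr8:70698724-70698753, plus strand: ccccacccccaTGACGTCAacccacaatgc

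The libraries differed in scale, which bears on every value. Replicate 1 gave 59355 calls with a median signal value of 0.556, and replicate 2 gave 46566 calls with a median of 1.45. The signal value is the authors' own height of a call, and its scaling is not stated. At the 26012 DHSs called in both libraries, referred to as shared DHSs, the median ratio of replicate 2 to replicate 1 was 2.13. Calls with a signal value under 0.3 made up 42.5% of replicate 1 and 2.39% of replicate 2. Footprints, short runs of bases protected from cutting, numbered 153911 in replicate 1 and 224652 in replicate 2. For these reasons each gene's promoter value is also given as a percentile, the rank among all protein-coding genes with a promoter call in the same library. Read totals were not used here. In bulk tissue, a DHS open in fewer cells and a DHS less open in every cell cannot be told apart. The labelled tissue was checked by promoter DHSs of marker genes. Of 8 markers of forebrain and projection neurons, 3 had a shared one (Tbr1, Fezf2 and Mef2c), a lower share than the 55.7% of all protein-coding genes; 3 had a call in replicate 1 and 7 in replicate 2. Shared ones were found at 1 of 5 interneuron, 1 of 4 astrocyte and 3 of 4 oligodendrocyte-lineage markers, and at 0 of 4 microglial, 0 of 3 endothelial, 0 of 7 non-brain and 0 of 3 hindbrain markers. A call in 1 library alone was present at 1 endothelial marker in replicate 1 and at 1 hindbrain marker in replicate 2.

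A promoter DHS was a call within 1 kb of the start of a transcript in the basic annotation. All 6 genes had a promoter call in replicate 1, where 57.0% of protein-coding genes had one, and all 6 had one in replicate 2, where 60.2% did. Calls of both animals overlapped at the promoter in 6 of 6 members, against 55.7% of protein-coding genes. In the lenient peak lists, which hold more calls, this was again 6 of 6, against 61.5% of genes. The promoters of the members were CpG-rich, with a median observed to expected CpG ratio of 0.817 against 0.552 over all genes.

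**Figure D1:**
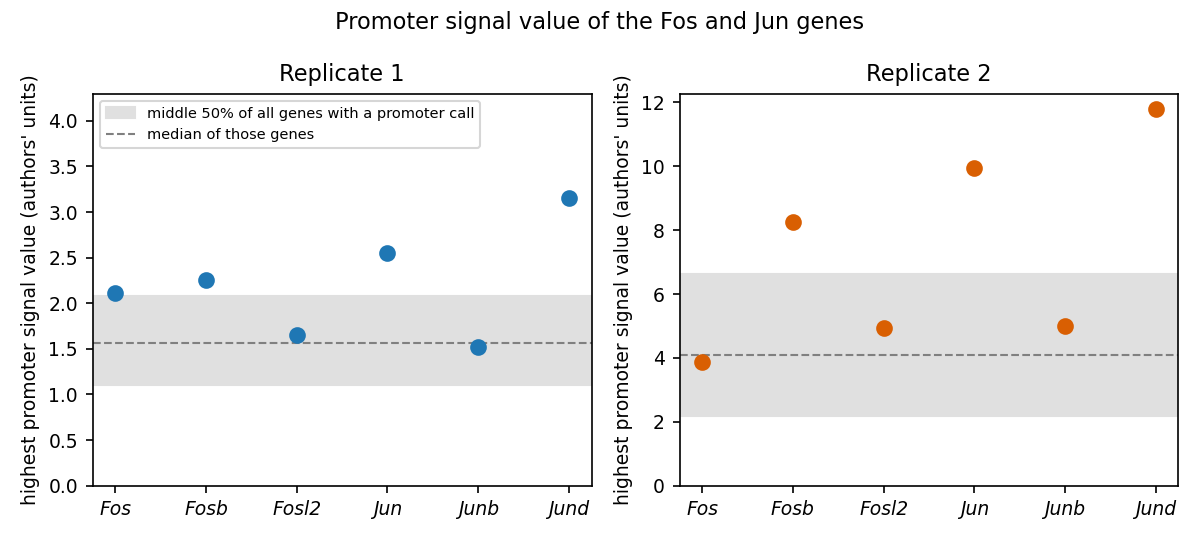
Highest promoter signal value (vertical axis, in the authors' units) of each Fos and Jun gene in replicate 1 (left) and replicate 2 (right), with the median and middle 50% of all protein-coding genes that had a promoter call. Jund is highest in both libraries at 3.15 and 11.8, and Fos lies above the middle 50% in replicate 1 at 2.11 and below the median of 4.09 in replicate 2 at 3.88.

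Fos, the founding member of its family, lies at chr12:85473890-85477273 on the plus strand, with no other protein-coding gene in its window. Its promoter DHS (chr12:85473541-85474100) covered the start, 150 bases of 5′ untranslated sequence and 61 coding bases. The signal value was 2.11 in replicate 1 and 3.88 in replicate 2. These stood at percentiles 76.1 and 47.6, so Fos was above the middle of the genes in replicate 1 and just under it in replicate 2. The shift of 28.6 percentile points was the largest of the 6 genes, and a shift as large was seen at 2.84% of the 12272 genes with a call in both libraries. The ratio of the values was 1.84, against a median of 2.74 over those genes. A weaker DHS, mostly over the first intron and centred at 0.603 kb from the start, had 0.873 and 1.83 and held no footprint in either library.

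Fosb, a Fos family gene whose long-lived splice form accumulates in brain with repeated activity, lies at chr7:19302696-19310051 on the minus strand. The DHS just upstream of its start (chr7:19310061-19310480) had a signal value of 2.00 in replicate 1 and 5.36 in replicate 2. A second DHS inside the gene (chr7:19308541-19308860), centred 1.35 kb from the outer start, was higher in both libraries at 2.26 and 8.27. It lay in the first intron of the coding transcripts, within 1 kb of the start of a shorter transcript of the basic set; a non-coding GENCODE transcript that keeps this intron covers all 320 bases. This inner DHS set the promoter value of Fosb, at percentiles 81.5 and 85.2. With a promoter window of 0.5 kb the value of Fosb was that of the outer DHS.

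Fosl2, which encodes Fra-2, lies at chr5:32135801-32157842 on the plus strand and is the longest of the 6 genes at 22042 bp. Its promoter DHS (chr5:32135341-32135880) had 1.65 in replicate 1 and 4.93 in replicate 2, at percentiles 54.5 and 59.3. Both values lay close to the middle of all genes with a promoter call. RefSeq puts the start of Fosl2 671 bp downstream of the GENCODE start, inside a weaker DHS (chr5:32136221-32136772) with 0.715 and 1.17. The DHS at the GENCODE start was the higher of the pair in both libraries.

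Jun, the gene of c-Jun, lies at chr4:95049034-95052222 on the minus strand as a single exon, alone in its window among protein-coding genes. Its promoter DHS (chr4:95052161-95052800) had 2.55 in replicate 1 and 9.95 in replicate 2, at percentiles 89.5 and 92.3. More shared DHSs lay close by. Upstream, a DHS at -1.05 kb had 1.48 and 3.99. The other 3 lay in the transcribed part, over the 5′ untranslated sequence and first coding bases (1.06 and 1.38), over coding sequence alone (0.920 and 2.13) and over the 3′ untranslated region (0.775 and 2.00). These 3 were the lowest of the 6 shared DHSs of the Jun window in each library.

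Junb, the gene of JunB, lies at chr8:84974484-84978718 on the minus strand among 9 other protein-coding genes. Its promoter DHS (chr8:84978603-84978940) had 1.52 in replicate 1 and 5.00 in replicate 2, at percentiles 47.9 and 59.9. This was the lowest promoter value of the 6 genes in replicate 1, while in replicate 2 Fosl2 and Fos were lower. A DHS of nearly the same height (chr8:84976501-84976764) had 1.51 and 4.95 and lay 145 bp past the 3′ end of the protein-coding transcript. GENCODE counts it within Junb because a further, non-coding transcript starts inside it. Upstream, a DHS at -1.22 kb had 1.36 and 4.79, so the 3 sites around Junb differed little in height in each library.

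Jund lies at chr8:70698949-70700616 on the plus strand, also as a single exon. Its promoter DHS (chr8:70698641-70699020) had 3.15 in replicate 1 and 11.8 in replicate 2, at percentiles 97.0 and 96.6. These were the highest promoter values of the family in both libraries, and the shift between libraries was 0.386 percentile points. The lowest false discovery rate of the cut rate within this DHS was 1.87e-30 in replicate 1 and 2.07e-95 in replicate 2. Next to it, a DHS at -0.458 kb had 1.67 and 3.97, and 2 DHSs over the exon had 1.06 and 1.74, and 1.31 and 3.64. RefSeq starts Jund further upstream, at -1210 bp relative to the GENCODE start, which makes the promoter DHS part of its 5′ untranslated sequence; no shared DHS overlapped that upstream start.

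Over the 6 genes, the median percentile of the promoter value was 78.8 in replicate 1 and 72.6 in replicate 2. The order Jund, Jun, Fosb held in both libraries. The place of Fosb rests on its inner DHS: with a promoter window of 0.5 kb its value in replicate 1, 2.00, was below the 2.11 of Fos, while in replicate 2 it stayed next after Jun at 5.36. Below them the order did not hold: Fos came next in replicate 1 and last in replicate 2, and Fosl2 and Junb changed places, so these 3 could not be ranked. Shifts of the percentile between libraries were 3.72 points for Fosb, 4.82 for Fosl2, 2.82 for Jun and 11.9 for Junb. Those of Fosb, Fosl2, Jun and Jund were under the all-gene median of 7.18, and those of Fos and Junb were above it.

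**Figure D2:**
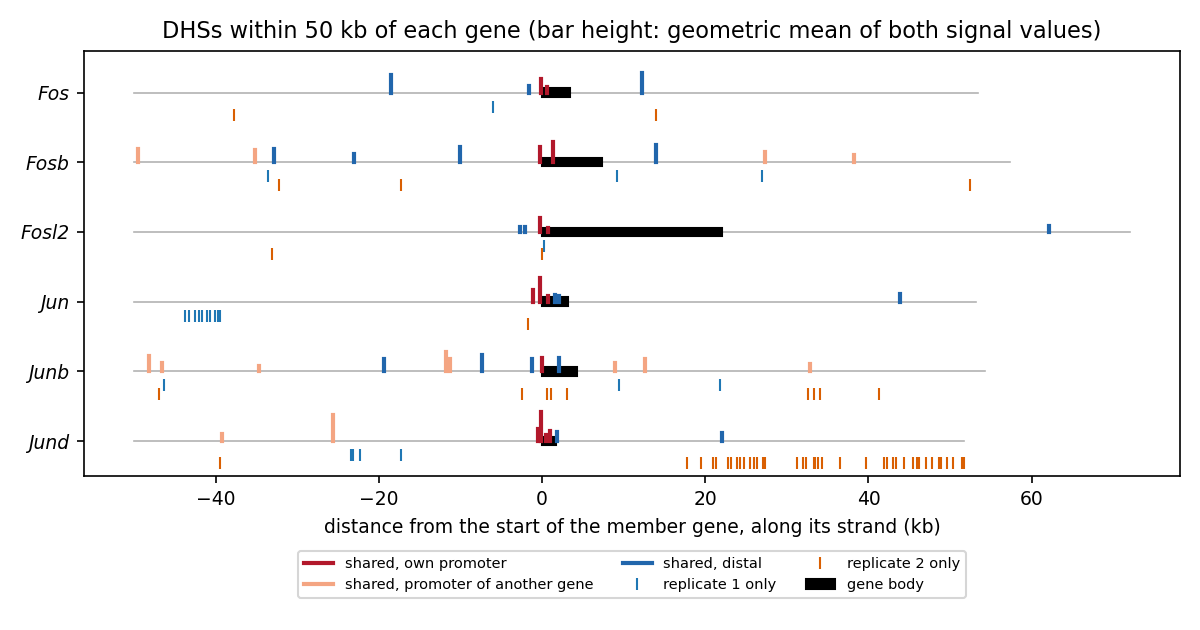
Positions of DHSs in the window of each gene (horizontal axis, distance from the start of the gene along its strand in kb). Bars above each line are shared DHSs, with a height proportional to the geometric mean of both signal values. Ticks below it are calls of 1 library that overlap no call of the other, and some of them lie within a shared DHS. The 10 ticks of replicate 1 upstream of Jun and the 39 of replicate 2 downstream of Jund form stretches without a match in the other library.

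The 6 windows, 102 to 122 kb long, held 47 shared DHSs. Of these, 14 were promoters of the members themselves and 14 were promoters of neighbouring genes, all in the gene-dense windows of Fosb, Junb and Jund. The remaining 19 were distal, meaning more than 1 kb from every protein-coding start. They comprised 12 intergenic sites, 4 in the members' own gene bodies, 2 in exons and 1 in an intron of other genes. Intergenic here means outside protein-coding genes. Each window also holds annotated genes of other types, and overlap with those was not examined. Several were close to the member's own start, centred at -1.56 kb for Fos, -2.09 and -2.68 kb for Fosl2 and 1.79 kb for Jund. The same held for Jun at 1.56 and 2.14 kb and for Junb at -1.22 and 2.08 kb. The nearer edge of the Junb site at -1.22 kb lay at -1003 bp, just past the 1 kb limit. RefSeq starts Junb at -30 bp relative to the GENCODE start, which would put this site within 1 kb. With a promoter window of 2.5 kb, 10 distal DHSs remained. The comparisons with all genes here use the 1 kb limit. Fosb and Junb had 4 distal DHSs each, Fos, Fosl2 and Jun 3 each, and Jund 2. At least 1 distal shared DHS was present in 6 of 6 windows, against 54.3% of the windows of all protein-coding genes. The median over the members was 3, and over all genes 1 with quartiles of 0 and 2. Fewer distal DHSs than at Fos, Fosl2 and Jun were counted in the windows of 86.2% of genes, fewer than at Fosb and Junb in 93.5%, and fewer than at Jund in 71.5%. Per 100 kb of window, the members had 1.97 to 3.84 and the median gene 0.526. As every window holds a fixed 50 kb on either side of the gene, this does not remove the effect of gene length.

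**Figure D3:**
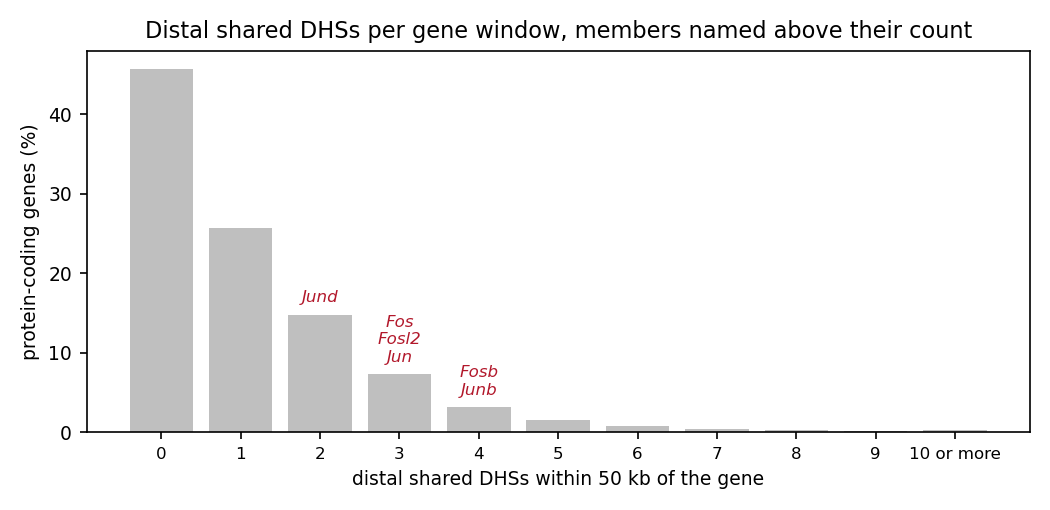
Share of protein-coding genes (vertical axis, percent) by the number of distal shared DHSs within 50 kb of the gene (horizontal axis), with the Fos and Jun genes named above the bar of their count. The most common count is 0, at 45.7% of genes, while the members stand at 2, 3 and 4, counts that 14.8%, 7.28% and 3.14% of genes have.

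Distal DHSs of these windows had a median width of 300 bp against 215 bp for all 11428 distal shared DHSs. Their median signal values were 1.36 in replicate 1 and 2.81 in replicate 2, against 0.962 and 1.80. Their GC content was higher too, with a median of 62.0% against 54.5%. The part of width and GC content in the counts of consensus matches below was not tested, other than by shares over windows of the same length where these are given. The part of closeness to the members' own starts was not tested.

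By the geometric mean of both values, the 2 highest distal DHSs of the family flanked Fos. The site at 12.2 kb downstream of its start (chr12:85485981-85486280, intergenic) had a signal value of 2.55 in replicate 1 and 6.66 in replicate 2, above the Fos promoter in both libraries. The site at -18.5 kb (chr12:85455101-85455640, intergenic) had 1.80 and 7.40, below the promoter in replicate 1 and above it in replicate 2. The site nearest to the promoter, at -1.56 kb, was lower than it in both, with 0.948 and 1.76. Replicate 2 alone added a call at -37.7 kb with 3.55 and another at 14 kb with 1.82, and both had a weaker counterpart in the lenient list of replicate 1.

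At Fosb the highest distal site lay 14 kb downstream in an exon of Rtn2 (chr7:19295921-19296100), with 2.48 in replicate 1, above the Fosb promoter value, and 5.26 in replicate 2, below it. Upstream of Fosb, sites at -10.0 and -32.8 kb followed with 1.71 and 5.81, and with 1.96 and 4.25. At Junb the highest lay at -7.33 kb (chr8:84985841-84986260, intergenic), with 1.98 and 5.81, both above the Junb promoter's 1.52 and 5.00. Fos and Junb were thus the members whose highest distal site exceeded their own promoter in both libraries. The Jun site at 43.9 kb (chr4:95008241-95008440) had 1.39 and 2.14, and the Fosl2 site at 62.1 kb (chr5:32197821-32198020) had 1.02 and 1.75. The Jund site at 1.79 kb (chr8:70700570-70700900), which spans the 3′ end of the gene, had 1.21 and 2.73. All 3 were below the promoter of their gene in each library.

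Footprints were read within each shared DHS. The 47 DHSs held 169 footprints in replicate 1 and 229 in replicate 2, and 115 of the former overlapped 1 of the latter by at least 1 bp. A footprint in each library was present in 42 of 47, against 91.1% of all shared DHSs. All 19 distal DHSs and all 14 promoters of neighbours had a footprint in each library, and of the members' own 14 promoter DHSs 9 did; over all shared DHSs the shares were 93.5% for distal and 89.2% for promoter DHSs. The 5 without were the DHSs over transcribed sequence at Fos, Fosl2, Jun and, in both cases, Jund, with signal values of 0.715 to 1.31 in replicate 1. The Jun promoter DHS held 14 footprints in replicate 1, the most of the 47, and 13 in replicate 2, as many as the Rtbdn promoter in the Junb window; 11 of the 14 overlapped a footprint of replicate 2. The Fos promoter had 10 in replicate 1 and 8 in replicate 2, with 7 of the 10 overlapping, and the distal site at -18.5 kb also had 10 and 8. In replicate 2 the Rtn2 promoter (10), the outer Fosb DHS (9) and the Junb site at -7.33 kb (9) held more than these Fos sites. At the inner Fosb site 21.9% of the bases lay in footprints of replicate 2 and 14.4% in those of replicate 1.

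**Figure D4:**
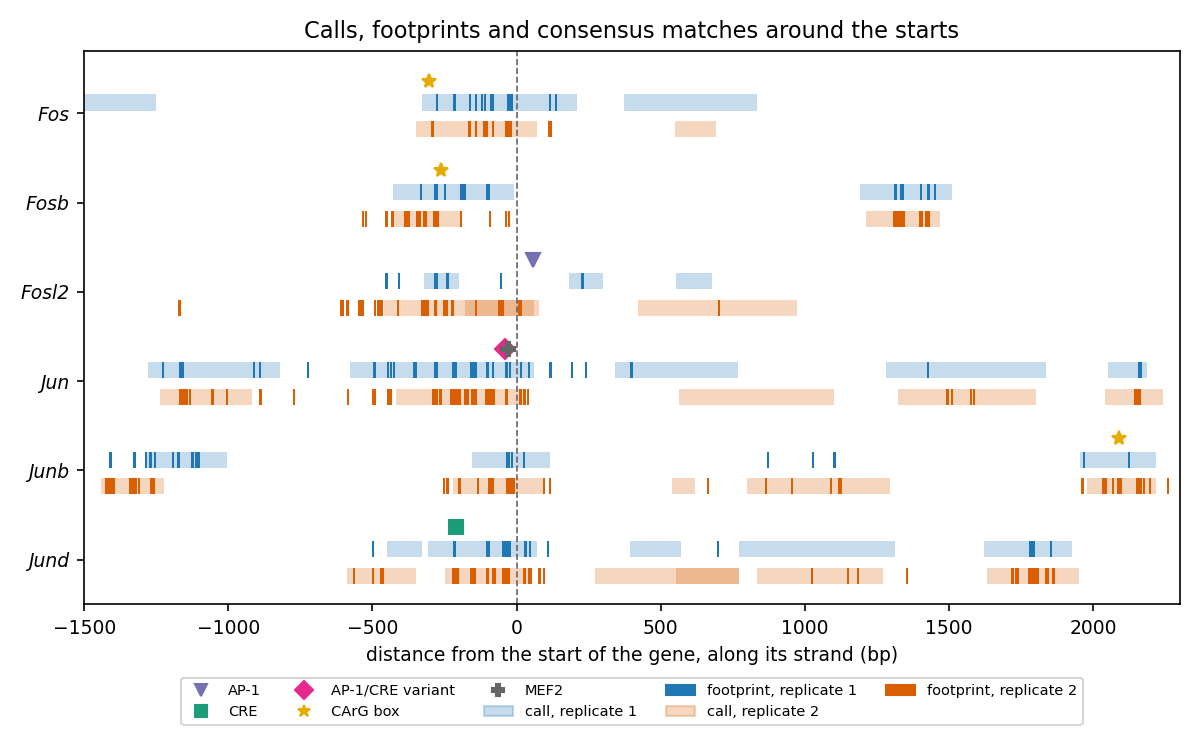
Calls (pale bars, darker where 2 calls of a library overlap), footprints (narrow bars) and consensus matches (symbols) around the start of each gene; the horizontal axis is the distance from the start along the strand in bp, with replicate 1 above replicate 2. The CArG boxes of Fos and Fosb lie in calls of both libraries with no footprint over them, and the variant AP-1/CRE and MEF2 matches of Jun lie side by side next to its start.

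Consensus matches were sought on both strands of each whole DHS; a match describes letters and not binding. CArG boxes were present in 5 of the 47 DHSs, while 1.17% of all shared DHSs held one. By class this was 3 of 28 promoter DHSs against 1.25%, and 2 of 19 distal DHSs against 1.08%. Among promoter windows of the same length as the Fos promoter DHS, 1.65% held a CArG box, and for that of Fosb 1.29%. The Fos match began at -309 bp, near the upstream edge of the promoter DHS, and the Fosb match at -266 bp, near the middle of its DHS. No footprint of either library covered them. The match downstream of Fos, 12224 bp from the start, had 10 of its 10 bases in a footprint of replicate 2 and none in replicate 1. The match past the end of Junb had 9 bases, and that in the Hook2 promoter 6 bases, in a footprint of replicate 2 and none in replicate 1. In all, 0 of 5 matches were footprinted in replicate 1 and 3 of 5 in replicate 2. Over the genome 23.3% and 30.6% of CArG boxes in promoter DHSs were touched by a footprint of replicates 1 and 2, and 21.6% and 29.6% of those in distal DHSs, so most matches had none.

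The AP-1 consensus TGACTCA, the sequence that Fos and Jun dimers bind best, was found in 1 of 19 distal DHSs, where 3.56% of all distal shared DHSs held it, and in 1 of 28 promoter DHSs, where 3.01% did. The distal match lay at -23034 bp from the Fosb start in a DHS with 1.19 in replicate 1 and 2.81 in replicate 2. The promoter match lay 53 bp inside the GENCODE transcript of Fosl2. It was in calls of replicate 2 only, as the replicate 1 call of that shared DHS spanned -320 to -201 bp. All 540 bases of that DHS, the match included, had a false discovery rate of the cut rate under 0.001 in both libraries. Neither match was in a footprint of either library. Footprints touched few AP-1 matches in the tissue as a whole, 12.4% and 19.0% of those in distal DHSs and 5.32% and 9.98% of those in promoter DHSs.

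Variant and cAMP response elements were found at other members. The Jun promoter held TGACATCA from -45 bp, of which 2 bases were in a footprint in replicate 1 and 2 in replicate 2, and a MEF2 consensus from -33 bp, with 7 and 4 bases. Promoter windows of that length held the variant in 1.79% of cases and the MEF2 consensus in 0.555%. A further TGACATCA lay on the minus strand at -1724 bp from Fos with no footprint. The full CRE TGACGTCA occurred once, at -214 bp in the Jund promoter, with 5 of its 8 bases in a footprint of replicate 1 and all 8 in replicate 2. Promoter windows of that length held it in 3.29% of cases, and 59.4% and 84.0% of full CREs in promoter DHSs were touched by a footprint. Most full CREs in promoter DHSs were thus footprinted, that of Jund included, and most CArG boxes were not, those of Fos and Fosb included.

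The CRE core TGACGT, which also counts the full CRE of Jund, had 19 matches in 14 of the 47 DHSs. It was in 9 of 28 promoter DHSs (32.1%, against 13% of all promoter DHSs) and in 5 of 19 distal DHSs (26.3%, against 4.40%). Among windows of the same length as the DHSs with a match, 9.88 to 15.6% of promoter and 4.22 to 7.98% of distal ones held it. As the core was chosen after these sequences had been seen, its higher share here is no independent result. At Fos the core lay at -66 bp without a footprint in either library, and at Fosb it lay at -317 bp with all 6 bases in a footprint of replicate 2 and none in replicate 1. In the inner Fosb DHS, 2 bases in replicate 1 and 6 in replicate 2 were covered. The same 200 bases as the CArG box held a core at the Fos downstream site, at the Fosb promoter and past the end of Junb.

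Among the other sequences searched, the EGR consensus GCGNGGGCG, bound by another family of immediate-early factors, was in 5 of 19 distal DHSs (26.3%, against 3.19%) and in 5 of 28 promoter DHSs (17.9%, against 18%). The match beside Fos at 12301 bp had all 9 bases in a footprint of both libraries. The SP consensus GGGCGG, which can overlap the EGR consensus, was in 13 of 19 distal DHSs (68.4%, against 22.2%) and in 75% of promoter DHSs (against 75.4%). Both are GC-rich, as were these distal DHSs. The NFY consensus CCAAT was in 5 of 19 distal DHSs (26.3%, against 25.5%), the ETS consensus CCGGAAG in 2 (10.5%, against 4.05%) and the NEUROD E-box CAGATG in 1 (5.26%, against 20.5%). The CTCF consensus was in none of the 19, where 19.0% of all distal shared DHSs held it. The only match in the 47 shared DHSs was in a Hook2 promoter DHS (chr8:84989901-84990120), a different one from that with the CArG box. Footprints of both libraries covered all 12 bases of the match.

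Calls of 1 library alone, meaning calls that overlapped no call of the other in the stricter lists, were unequally spread. Some still lay within a shared DHS, such as the replicate 2 call at 4.54 in the Fosl2 promoter DHS. Fos, Fosb, Fosl2 and Junb had 1 to 9 such calls per library, each with a signal value above 0.3. At Jun, replicate 1 had 10 calls between -43.8 and -39.4 kb (chr4:95091561-95096080), with values of 0.0934 to 0.210 and no call in either list of replicate 2 in that span. At Jund, replicate 2 had 39 calls in a stretch of 34.2 kb, from 17.8 to 51.7 kb downstream (chr8:70716636-70750800), with values of 0.126 to 1.32 and a median of 0.323. That stretch held 18 of the 1113 calls under 0.3 in all of replicate 2. It held 1 shared DHS, and the lenient list of replicate 1 had 1 call in it in total. The total of calls in the Jund window was therefore 12 in replicate 1 and 49 in replicate 2, and at Jun 16 and 7. Why calls of 1 library lie together in these stretches was not tested. Apart from the shared DHS in the Jund stretch (chr8:70720801-70721000), at 1.32 and 2.02, no count of shared DHSs above rests on them; without it Jund has 1 distal shared DHS.

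The genes around the pathway were listed in 3 groups, again set beside the 55.7% of protein-coding genes with a shared promoter DHS; intervals are exact binomial and cover counting error over genes only. Of 8 relatives that pair with Fos or Jun proteins or bind the same sites, 5 had one (62.5%, 95% interval 24.5 to 91.5). Atf7 and Atf2, CRE-binding partners of Jun, had the highest values of the group, 4.10 and 12.5, and 2.45 and 11.3. Jdp2, a repressive partner of Jun whose start lies 125 kb from that of Fos, had 1.09 and 2.02. Batf and Batf2, best known in immune cells, had no promoter call in either library, although the Batf window held 3 distal shared DHSs. Fosl1, the gene of Fra-1 and the Fos family gene that is not a member here, had a call in replicate 2 alone, at 1.69, and a shared DHS in the lenient lists. The 3 Fos genes among the members had a shared promoter DHS in the stricter lists.

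All 14 factors known to act at the Fos and Jun promoters had both libraries' calls at the promoter (95% interval 76.8 to 100). Creb1, the CRE-binding factor, had 3.48 in replicate 1 and 13.9 in replicate 2, and Mrtfa, a coactivator of SRF, 3.43 and 11.5. Srf itself had 2.07 and 7.04, at percentiles 74.7 and 78.2, whereas the SRF partner Elk3 had 0.584 and 0.835, at 3.44 and 4.35. Of 18 kinases upstream of them, 17 had one (94.4%, 72.7 to 99.9). Map2k7, which encodes an activator of the Jun N-terminal kinases, had 3.19 and 16.8, and Mapk14, the gene of p38 alpha, 3.06 and 13.5. Mapk10, the neuronal JNK gene, had a call in replicate 2 alone at 2.56, and a shared DHS in the lenient lists. Over the 3 groups 36 of 40 genes had a shared promoter DHS.

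Genes whose pattern was most like that of each member were sought over 3 percentiles, the promoter value in each library and the number of distal shared DHSs, among 12272 genes. Distances are in percentile points over 2 libraries only and carry no statement on shared control. The nearest were Ctsb (0.754) and Pdlim7 (4.77) for Fos, Zfpm1 (0.281) and Pcsk4 (3.37) for Fosb, and N4bp1 (0.779) and Gak (1.21) for Fosl2. They were Mthfsd (0.132) and Trappc1 (1.32) for Jun, Brd3 (1.36) and Sgsm2 (2.82) for Junb, and Tef (0.347) and Mlec (1.00) for Jund. None was another Fos or Jun gene.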

How the data were processed

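DNase-seq of 2 libraries of left cerebral cortex was analysed from the files the authors deposited, in mm10 coordinates and made separately for each library, per the file headers. Each library has 2 lists of peaks with the authors' signal value, whose scaling is not stated. Not given in the sources used here are the aligner, the peak caller and their settings. The deposited file of the cut rate gives a false discovery rate (q-value) per run of bases, and the deposited footprints carry the value 0.01 on every line, taken as a threshold p-value or rate and not as a measurement. The list with fewer calls is called the stricter list and was used throughout.

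From these files, calls of both libraries that overlapped by 1 bp or more were joined into shared DHSs and classed in order as own promoter (within 1 kb of a start in the GENCODE M21 basic annotation), promoter of another gene, own gene body, exon, intron or intergenic. The classes used protein-coding genes only. Values are given per library; the mean percentile and the geometric mean of both libraries were used to rank genes and DHSs, and the former in the alternatives. Percentiles count genes with a promoter call in the same library at or below a value. With 1 group of 2 libraries no test was run. Interval shares are exact Clopper-Pearson at 95% and cover counting error only. Consensus shares refer to windows of the same length centred on all shared DHSs of the class where stated so. Overlap, joining of calls and matching were checked on simulated data, while the classing of DHSs was not. Python 3.11.15, numpy 2.4.6, scipy 1.17.1, pysam 0.24.0 and matplotlib 3.10.9 were used.

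The members and the gene lists were chosen with earlier results of these data known. Some marker genes of the list are not reported here. Named were all 6 members; in each group of pathway genes the 2 with the highest mean percentile and, by alphabet, the first 2 lacking a shared promoter DHS, with Fosl1, Batf and Jdp2; own promoter DHSs, the highest distal DHS of each window by the geometric mean of both values, and DHSs with a TGACTCA, TGACGTCA, TGACATCA or CArG match; and for each member the 2 nearest genes. Srf, Elk3 and further DHSs were named after their values were seen. Alternatives were the lenient lists, the stronger 50% of calls, an overlap of 50% of the shorter call, promoter windows of 0.5 and 2.5 kb, flanks of 25 and 100 kb, footprints wholly inside the DHS, the central 150 bp, and each library alone. The split of single-library calls at 0.3 and the CRE core were added after seeing the data.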

Additional observations from a re-analysis of the deposited data

How the results depend on the processing

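Counts within 1.5 times the reported value, and a median percentile within 4.43 points (the SD between the libraries), were taken as unmoved. Of 49 recomputed values 38 were and 11 moved. The SD comes from the 2 single-library medians, so it is no independent limit for those. The members with a shared promoter DHS stayed at 6 of 6 under every alternative run. The 47 shared DHSs became 75 with flanks of 100 kb, and 71 to 107 when each library was taken alone. The 19 distal DHSs became 33 in the lenient lists, 10 with a promoter window of 2.5 kb, and 38 to 61 with each library alone; the 61 of replicate 2 include the stretch downstream of Jund. The median of the mean percentile of both libraries, 72.6, became 64.9 with a promoter window of 0.5 kb, which drops the inner Fosb site, and 72.6 to 78.8 with each library alone. The single distal DHS with TGACTCA became 3 in the lenient lists and 1 to 5 with each library alone. DHSs with a footprint in each library (42 of 47) gave 41 to 60, but the number of DHSs changed too. There were 60 of 63 in the lenient lists, 50 of 107 with replicate 2 alone and 47 of 71 with replicate 1 alone. The count was thus unmoved, while the share fell with each library alone. Pathway genes with a shared promoter DHS (36) gave 34 to 38. No paired analysis was possible because there is 1 group of 2 libraries. With 2 animals and values of unstated scale, differences between libraries in single genes, such as that of Fos, have no error estimate, and an absent call or footprint says only that none was listed.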
